A study of Mus musculus with 16 samples.

Results

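The genes described here are 10 enzymes and inhibitors that remodel the matrix around cells, measured in C2C12, an established line of mouse myoblasts. These cells fuse into myotubes once they are moved to medium poor in serum. They are the secreted proteases Adamts1, Adamts4, Adamts5, Adamts9 and Adamts15, the matrix metalloproteases Mmp2 and Mmp14, and the tissue inhibitors of metalloproteases Timp1, Timp2 and Timp3. The members were chosen by gene name from the 35275 genes of the deposited table, and all 10 have a row. The choice was made with values in view, since Adamts1 was selected on its high level in differentiated knockout cells, so that contrast is described without a test. Timp3 was included because it is a reported target of miR-1 and miR-206.

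The 4 groups held 4 mRNA libraries each. Control GM and control DM3 came from wild-type cells, as 2 populations called control lines 1 and 2 below. The tKO GM and tKO DM3 groups came from 2 triple-knockout (tKO) clones, which lack the gene of miR-206 and both genes of miR-1a, miR-1a-1 and miR-1a-2. GM cells were proliferating in growth medium rich in fetal bovine serum, and DM3 cells had spent 3 days in medium low in horse serum. Each line had 2 cultures at each stage, numbered 1 and 2. All cells were described by the submitters as PAX7 negative. A knockout group therefore stands for 2 clones, and the p-values below measure the spread between libraries of these lines. With a clone left out, the knockout side is 2 cultures of a single clone, and the p-value speaks for that clone only. Poly(A) RNA was sequenced, so the knocked-out microRNAs themselves were not analysed here.

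Proteases of the ADAMTS family are secreted enzymes with a metalloprotease domain and thrombospondin repeats. ADAMTS1, 4, 5, 9 and 15 belong to the group that cuts large chondroitin sulphate proteoglycans such as versican and aggrecan. Clearance of versican around myoblasts accompanies their fusion. MMP14 is anchored in the membrane, cuts collagen and activates the secreted gelatinase MMP2, a step in which TIMP2 acts as the adaptor. TIMP1 and TIMP2 are soluble inhibitors of matrix metalloproteases, whereas TIMP3 binds to the matrix and also inhibits ADAMTS4, ADAMTS5 and ADAM17.

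The sequence of miR-206 and the matches to its seed among the members are given as a description. The mature miR-206-3p is shown from RefSeq (GRCm38.p6, chromosome 1, 20679055 to 20679076, plus strand) with its seed, bases 2 to 8, in capitals. miR-1a-3p is of the same seed family.

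mmu-miR-206-3p: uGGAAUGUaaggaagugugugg

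The longest annotated 3′ UTR of each member in GENCODE release M21 (GRCm38) was searched on the transcript strand for ACATTCC, the complement of bases 2 to 8, and for CATTCCA, which pairs with bases 2 to 7 and has an A opposite base 1. The 2 motifs overlap in the 8-base form ACATTCCA. Only Timp3 and Adamts4 held a match. These 3 stretches are shown because they are all the matches among the members, with the matched bases in capitals.

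Timp3 8-base match: tgggaaattgtgACATTCCAagttgact
Timp3 CATTCCA match: atcatatcgttttCATTCCActttagaa
Adamts4 CATTCCA match: aatagcatcctggCATTCCAggagctgg

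The Timp3 8-base match lies at base 1091 of a 3′ UTR of 3604 bases, in a stretch at chr10:86346981-86347008, plus strand. The other Timp3 match starts at base 1683, in the stretch chr10:86347572-86347599. The Adamts4 match starts at base 1130 of 1459, in the stretch chr1:171260295-171260322, plus strand. Among 10806 tested genes with an annotated 3′ UTR, 4.46% held the 8-base form and 18.96% held either 7-base motif. Timp3 has a long 3′ UTR, and 10.72% of those of the tested genes were at least as long. Neither motif occurs in the 3′ UTRs searched for Adamts1, Adamts5, Adamts9, Adamts15, Mmp2, Mmp14, Timp1 and Timp2, although that of Adamts5 runs to 6437 bases. A match of letters describes the sequence and is not evidence of binding.

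The members lie on 9 chromosomes in the deposited table (build mm10, the same assembly as GRCm38). Adamts1 (chr16:85793827-85803113, minus strand) and Adamts5 (chr16:85858170-85901125, minus strand) are neighbours 55056 bases apart, with no other gene of the table between them. The Timp1 gene (chrX:20870166-20874735, plus strand) lies inside Syn1 on the opposite strand, which was listed at 5.51 to 24.2 FPKM. Timp3 (chr10:86300372-86349506, plus strand) lies inside Syn3, at no more than 0.148 FPKM. Within Timp2 lies BC100451, on the same strand, at 0.198 to 1.32 FPKM. Whether the counting used strand is not given in the sources used here, so reads of Timp1 and Syn1 cannot be told apart in their overlap.

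Levels are in FPKM, fragments counted on a gene divided by its length in kilobases and by the library's total. Depth was 22642563 to 56585952 fragments per library. Differences between groups are on the log2(FPKM + 1) scale with their standard error (SE), from a limma fit over all 11832 genes with a mean of at least 0.5 FPKM. A gene was called where its p-value, adjusted over all of those genes by the Benjamini-Hochberg method, was under 0.05. Of the members, 8 passed this filter. Adamts9 and Adamts15 had at most 2 fragments in any library, under the detection floor of 3 fragments, and were not tested.

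The muscle identity of the cells was checked with marker lists. The 8 differentiation markers summed to 34.9 to 102 FPKM in GM and 334 to 1323 FPKM in DM3, and limma called 7 of the 7 tested higher in DM3 in both genotypes. In tKO DM3 culture 2 of both clones, at 475 and 334 FPKM, was under every control DM3 library (762 to 1147 FPKM). In culture 1 of DM3 the sums were 1323 and 1020 FPKM in tKO clones 1 and 2, against 1067 and 776 in control lines 1 and 2. Marker level was thus not matched between genotypes in culture 1 either. The members' genotype differences in DM3 are also given within culture 1. Those of other genes and of summed levels are given over both cultures only, so they include the shortfall of marker level in culture 2. The 5 endothelial markers summed to at most 0.495 FPKM, macrophage and leukocyte markers to at most 4.07 FPKM and adipocyte markers to at most 11.5 FPKM in any library.

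By level per kilobase, the inhibitors Timp1 and Timp2 and the membrane protease Mmp14 led in every group, and the order of the others differed between groups. In control GM, Timp1 averaged 361 FPKM ± 46 (SD, n = 4), Timp2 293 ± 30 and Mmp14 188 ± 11. Timp3 and Mmp2 followed, both with a mean of 35.4 FPKM, so these neighbours did not differ beyond their spread. Adamts1 averaged 12.9 FPKM ± 1.7, Adamts5 7.58 ± 1.13 and Adamts4 4.38 ± 0.64 in the same group. In tKO GM, Timp3 (73.6 FPKM ± 38) followed Mmp14 and Adamts4 (2.36 ± 0.99) was the lowest. In control DM3 Timp2 (359 FPKM ± 28) came before Timp1 (267 ± 25), and Mmp14, Mmp2, Adamts4, Timp3, Adamts1 and Adamts5 followed. Timp3 and Adamts1 overlapped there, at 9.54 to 19.2 and 11.4 to 16.1 FPKM. In tKO DM3 the order ran from Timp2 (264 FPKM ± 70) and Timp1 (217 ± 58) to Mmp14, Mmp2, Adamts4, Adamts1, Timp3 and Adamts5. Neighbours in this last order overlapped, other than Mmp14 with Mmp2 and Adamts1 with Timp3.

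**Figure D1:**
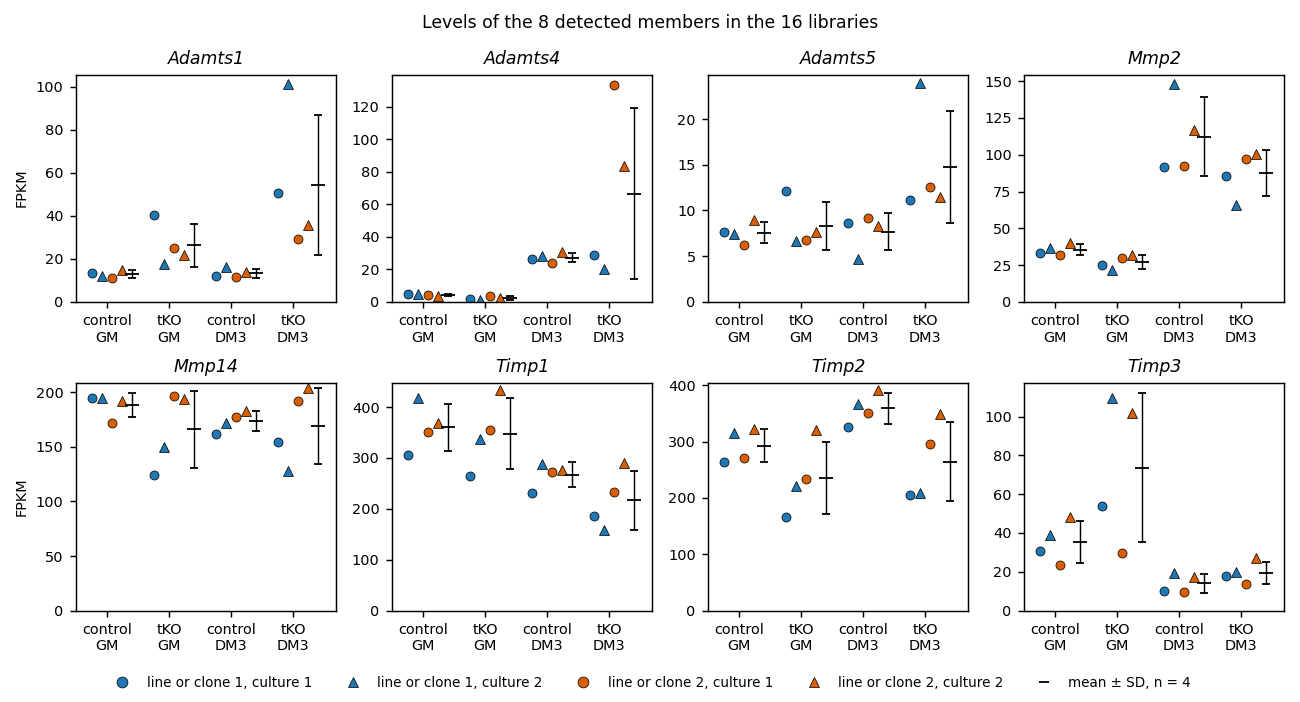
FPKM (vertical axes, from 0) of the 8 detected members in the 4 groups. Colour gives the line or clone, symbol the culture, and black bars the mean ± SD of 4 libraries; Adamts1 is higher in all 8 tKO libraries than in any control library of the same stage, and Adamts4 in tKO DM3 splits by clone.

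Adamts1, a versican-cutting protease, was the member selected on its level in tKO DM3. Its mean in GM was also higher in knockout cells, without a call and in the same 2 clones. In control GM it was at 13.6 and 12.1 FPKM in line 1 and at 10.9 and 14.8 in line 2. In tKO GM it was at 40.6 and 17.6 FPKM in clone 1 and at 25.2 and 21.6 in clone 2. All 4 tKO GM libraries lay above all 4 controls, and culture 1 of clone 1 was the highest. Of all tested genes, 14% had GM groups that did not overlap, in either direction. In bulk RNA, more cells expressing a gene and more RNA per cell cannot be told apart. The tKO minus control difference in GM was 0.92 (SE 0.30), 2.04-fold in mean FPKM, with a limma adjusted p of 0.124, so it was not called. With clone 2 left out it was called (1.01, limma adjusted p = 0.0487), as it was with clone 1 left out (0.82, limma adjusted p = 0.0169), or without culture 2 of clone 1 in DM3, which enters the shared spread (0.92, limma adjusted p = 0.0374). Under 26 of 29 alternatives it stayed uncalled, and the limma adjusted p ranged from 0.0169 to 0.924 over all of them.

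After differentiation the Adamts1 values were 11.8, 16.1, 11.4 and 13.7 FPKM in control DM3 and 50.8, 101, 29.3 and 35.6 FPKM in tKO DM3. The lowest knockout library stood above the highest control, and clone 1 was above clone 2. The mean was 4.09-fold higher in tKO DM3, a difference of 1.80 (SE 0.30) that chose the gene and is given as a description. Within culture 1 the difference was 1.65 and within culture 2 it was 1.95. With clone 1 left out it was 1.24, and with clone 2 left out it was 2.36. In control cells Adamts1 stayed near its GM level after differentiation, with a difference of 0.037 (SE 0.30, limma adjusted p = 0.923). In tKO cells the DM3 minus GM difference was 0.92 (SE 0.30), also given without a test, and the 2 stages overlapped, since the tKO GM culture at 40.6 FPKM lay above both DM3 libraries of clone 2.

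Adamts5, its neighbour on chromosome 16 and a protease of versican and aggrecan, was low in 3 of the groups. It was at 7.69, 7.38, 6.24 and 8.99 FPKM in control GM and at 12.2, 6.66, 6.78 and 7.62 in tKO GM. Those groups overlapped, with a difference of 0.090 (SE 0.24, limma adjusted p = 0.890). The levels were 8.60, 4.71, 9.13 and 8.33 FPKM in control DM3 against 11.2, 23.9, 12.6 and 11.4 in tKO DM3. The DM3 groups did not overlap, and the difference of 0.83 (SE 0.24) is a description. It was 0.38 within culture 1 and 1.27 within culture 2. In tKO cells Adamts5 rose between the stages by 0.73 (SE 0.24, limma adjusted p = 0.0142). The tKO stages overlapped, since culture 1 of clone 1 was at 12.2 FPKM in GM and 11.2 in DM3. The other tKO cultures were higher in DM3. Without culture 2 of clone 1 in DM3, the library at 23.9 FPKM, the rise was 0.49 and no longer called (limma adjusted p = 0.0543). With clone 2 left out the value was 0.79 (limma adjusted p = 0.0766). In control cells the stage difference was -0.0065 (SE 0.24, limma adjusted p = 0.982).

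Adamts4, an aggrecanase, showed the steepest change with differentiation among the members in both genotypes. In GM it was at 5.11, 4.61, 4.22 and 3.60 FPKM in control cells and at 2.04, 1.21, 3.57 and 2.61 in tKO cells. Every tKO GM library was below every control GM library, but the highest tKO value, 3.57 FPKM, was close to the lowest control. The difference of -0.72 (SE 0.42) was not called (limma adjusted p = 0.391), although it was with clone 2 left out (-1.05, limma adjusted p = 0.00348). In control DM3 the level reached 26.5, 28.3, 23.8 and 30.6 FPKM, a rise of 2.40 (SE 0.42, limma adjusted p = 1.19e-04) and 6.23-fold in the means. The control lines differed little in this group. In tKO DM3 the values were 28.6 and 20.4 FPKM in clone 1 and 133 and 83.9 in clone 2. The rise in tKO cells was 4.0 (SE 0.42, limma adjusted p = 6.70e-07), 28.3-fold in the means. Clone 1 fell in the range of the controls or just under it, while both libraries of clone 2 stood above every other library of the series.

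The tKO minus control difference of Adamts4 in DM3 was 0.88 (SE 0.42), given as a description. Within culture 1 it was 1.27 and within culture 2 it was 0.49. It had opposite signs in the 2 clones, at -0.16 with clone 2 left out and 1.92 with clone 1 left out. Over both stages Adamts4 was higher in clone 2 than in clone 1 by 1.37 (SE 0.18, limma adjusted p = 9.58e-04). Tested after these values had been seen, the clone difference in DM3 alone was 2.08 (SE 0.25, limma adjusted p = 7.55e-04). Among all genes, 2.03% were called in that comparison. In GM alone the clone difference was 0.65 (SE 0.25, limma adjusted p = 0.344). The change of the clone difference between stages, 1.44 (SE 0.35), was not called (limma adjusted p = 0.364), and limma and voom called 0 genes there, against 489 at an unadjusted p under 0.05 with limma. Of the 7 tested differentiation markers, 5 were lower and 2 higher in clone 2 than in clone 1 in DM3. Their median difference was -0.52, and limma called 1 of them lower. The summed level of 8 muscle genes, Myog, Ckm and Acta1 among them, was 1323 and 475 FPKM in clone 1 and 1020 and 334 FPKM in clone 2 in DM3. Culture 1 was the higher in both clones for these markers and for Adamts4 in tKO DM3, and the part of marker level in the result was not tested.

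**Figure D2:**
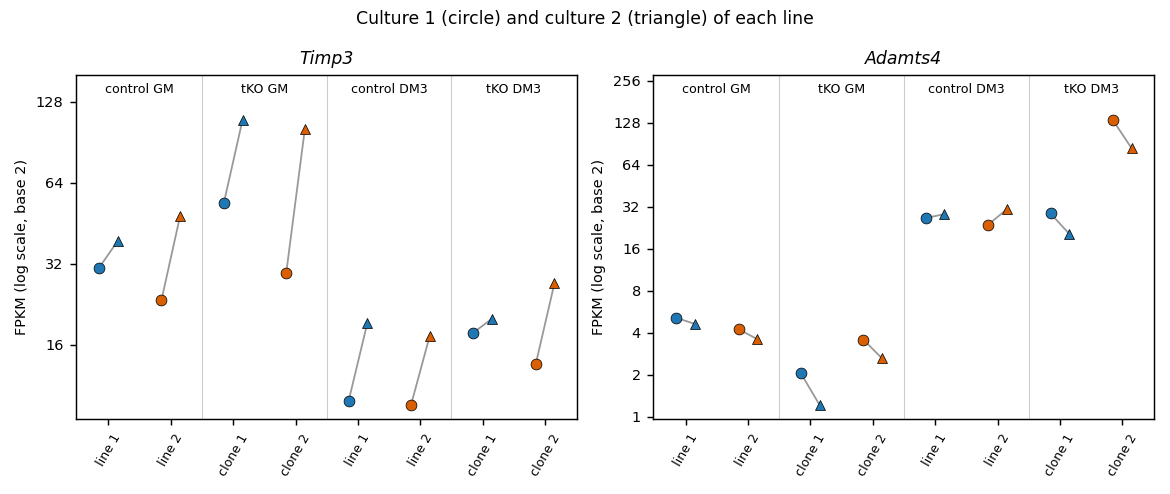
FPKM of Timp3 (left) and Adamts4 (right) on log axes of base 2, with culture 1 (circle) joined to culture 2 (triangle) for each of the 4 lines at both stages. Timp3 is higher in culture 2 in all 8 joined pairs, and Adamts4 in tKO DM3 is at 133 and 83.9 FPKM in clone 2 against 28.6 and 20.4 in clone 1.

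The gelatinase Mmp2 rose with differentiation in both genotypes by nearly the same amount. It was at 33.4, 36.9, 31.5 and 39.8 FPKM in control GM and at 91.4, 148, 92.4 and 117 in control DM3. The increase was 1.62 (SE 0.17, limma adjusted p = 6.44e-07), 3.17-fold in the means, and the stages did not overlap. In tKO cells the values were 24.8, 21.8, 29.6 and 32.0 FPKM in GM and 85.9, 66.1, 97.4 and 101 in DM3. This increase was 1.65 (SE 0.17, limma adjusted p = 4.72e-07). The interaction, the tKO stage difference minus the control one, was 0.038 (SE 0.24), given without a test. The tKO minus control difference was -0.38 in GM (SE 0.17, limma adjusted p = 0.249) and -0.35 in DM3 (SE 0.17, a description), and the genotypes overlapped at both stages. Within culture 1 the DM3 difference was -0.0081, and within culture 2 it was -0.69. Collagen genes of the fibroblast marker list moved with Mmp2 between stages. Col1a1 and Col1a2 made up nearly all of the summed level of its 6 genes, which went from 903 to 1416 FPKM (control GM) to 2585 to 3038 (control DM3), and from 501 to 1036 (tKO GM) to 1684 to 3285 (tKO DM3). Both collagen genes were called higher in DM3 by limma in both genotypes, whereas Pdgfra averaged 3.23 ± 0.79 FPKM (SD, n = 4) before and 3.39 ± 0.85 after differentiation of control cells and was called higher in tKO cells alone. None of the 6 was at 0 in every library of a group, 3 of them were under a mean of 0.5 FPKM in each GM group, and their part in the result was not tested.

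Mmp14, which activates proMMP2 at the cell surface, showed no called change with stage or genotype. Control libraries held 172 to 195 FPKM in GM and 162 to 183 in DM3, and tKO libraries held 125 to 196 in GM and 128 to 204 in DM3. The stage difference was -0.12 in control cells (SE 0.15, limma adjusted p = 0.534) and 0.031 in tKO cells (SE 0.15, limma adjusted p = 0.879). With median-of-ratios scaling the control value turned to 0.088, also not called. The tKO minus control difference in DM3 was -0.058 (SE 0.15, a description), with 0.021 within culture 1. The tKO GM libraries split by clone, at 125 and 150 FPKM in clone 1 and 196 and 194 in clone 2. With clone 2 left out Mmp14 was lower in tKO GM by -0.46 (limma adjusted p = 0.0320).

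Among the inhibitors, Timp1 was at 306, 417, 350 and 369 FPKM in control GM and at 231, 289, 273 and 276 in control DM3. The control stages did not overlap, and the fall of -0.43 (SE 0.18) had a limma adjusted p of 0.0468. That call ended under 15 of 28 alternatives, 10 of which left out a single library. With median-of-ratios scaling the value was -0.22 (limma adjusted p = 0.316). In tKO cells Timp1 was at 264, 337, 356 and 433 FPKM in GM and at 186, 159, 232 and 291 in DM3. Each clone was lower in DM3 than in GM, although clone 2 in DM3 overlapped clone 1 in GM, and the fall was -0.69 (SE 0.18, limma adjusted p = 0.00302). Between genotypes the difference was -0.067 in GM (SE 0.18, limma adjusted p = 0.890) and -0.33 in DM3 (SE 0.18, a description), with -0.27 within culture 1 of DM3.

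Timp2, the adaptor of MMP2 activation, was at 264, 316, 270 and 322 FPKM in control GM and 326, 366, 350 and 392 in control DM3. The stages did not overlap, but the difference of 0.29 (SE 0.19) was not called (limma adjusted p = 0.187). It was called under 5 of 28 alternatives, with 0.50 under median-of-ratios scaling (limma adjusted p = 0.0342) and 0.29 with only the control libraries in the fit (limma adjusted p = 0.0191). In tKO cells the levels were 165, 222, 233 and 320 FPKM in GM and 205, 208, 296 and 349 in DM3. The tKO groups overlapped, with a difference of 0.17 (SE 0.19, limma adjusted p = 0.455). The genotype difference was -0.35 in GM (SE 0.19, limma adjusted p = 0.355) and -0.47 in DM3 (SE 0.19, a description), with -0.46 within culture 1 of DM3. With clone 2 left out, the GM value was -0.60 (limma adjusted p = 0.0185).

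Timp3, the matrix-bound inhibitor with the 8-base seed match printed above, fell with differentiation in both genotypes. In control cells it was at 30.9, 38.9, 23.4 and 48.2 FPKM in GM and at 9.87, 19.2, 9.54 and 17.2 in DM3. Every DM3 library lay below every GM library, and the fall was -1.30 (SE 0.36, limma adjusted p = 0.00526). With a single control line in the fit the fall kept its size (-1.32 without line 1 and -1.27 without line 2) but was not called (limma adjusted p = 0.0800 and 0.0741). In tKO cells the levels were 53.8, 109.5, 29.5 and 102 FPKM in GM and 17.7, 20.0, 13.5 and 27.1 in DM3, again without overlap. The fall was -1.72 (SE 0.36, limma adjusted p = 6.07e-04), to a level 3.76-fold lower in the means.

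Between genotypes, mean Timp3 was 2.08-fold higher in tKO GM than in control GM. The difference was 0.91 (SE 0.36), limma did not call it (adjusted p = 0.200), and the groups overlapped. The cultures differed in a repeated way, with culture 2 above culture 1 in both lines of every group. Within culture 1 of GM the tKO minus control difference was 0.55 and the genotypes overlapped. Within culture 2 of GM it was 1.27, and both tKO libraries were above both controls. With clone 2 left out Timp3 was called in GM (1.15, limma adjusted p = 0.0488), as it was without culture 1 of clone 2 in GM (1.28, limma adjusted p = 0.0241). In DM3 the difference was 0.48 (SE 0.36), a description, with 0.63 within culture 1 and 0.34 within culture 2. Within each culture number of DM3 both tKO libraries were above both controls, although the groups of 4 overlapped.

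Contractile genes named as smooth muscle markers moved with Timp3 between stages and between the cultures of GM. The summed level of Acta2, Tagln, Cnn1 and Myh11 was 2075 and 2420 FPKM in culture 1 of the tKO GM clones and 6117 and 5728 FPKM in culture 2. In control GM it was 1874 and 1930 FPKM in culture 1 and 2971 and 3165 in culture 2. The DM3 sums were lower, at 755 to 1216 FPKM (control) and 920 to 1527 FPKM (tKO). In clone 2 of tKO DM3 the sum was 1406 FPKM in culture 1 and 1392 in culture 2, while Timp3 was at 13.5 and 27.1 FPKM. In the other DM3 lines the sum, like Timp3, was higher in culture 2. Of the 4 genes, 3 were tested and limma called all 3 lower in DM3 in both genotypes, with list medians of -1.43 in control and -1.83 in tKO cells. Acta2 made up most of the sum, and Myh11, which defines mature smooth muscle, was at no more than 0.206 FPKM. Proliferating myoblasts also express Acta2 and Tagln, and the part of these genes in the Timp3 values was not tested.

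Counted over the members, 0 of 8 tested were called by limma between genotypes in GM, against 2.06% of all genes. At an unadjusted p under 0.05 there were 3 members (Adamts1, Mmp2 and Timp3), against 2076 of the 11832 genes, and voom on recovered fragment numbers also called 0. With clone 2 left out 5 members were called, against 1315 of all genes in place of 244, and with clone 1 left out 1 member was called, against 179 of all genes. Adamts1 and Adamts4 had groups that did not overlap in GM, and the same held for 14% of all tested genes. In DM3 the groups of Adamts1 and Adamts5 did not overlap, against 8.52% of all genes, in the contrast that chose Adamts1. The median difference of the 8 members in DM3 was 0.21, and it was -0.23 with clone 2 left out.

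Between stages, 4 of 8 members were called in control cells, 2 higher (Adamts4 and Mmp2) and 2 lower (Timp3 and Timp1), against 61.5% of all genes. In tKO cells 5 of the 7 members tested were called, 3 higher (Adamts4, Mmp2 and Adamts5) and 2 lower (Timp3 and Timp1), against 60.9% of all genes. The members were thus called about as often as other genes. The median of all genes was -0.15 in control cells and -0.12 in tKO cells. Median-of-ratios scaling moved these medians to 0.0097 and 0.0063, and every member's stage difference moved up with them.

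**Figure D3:**
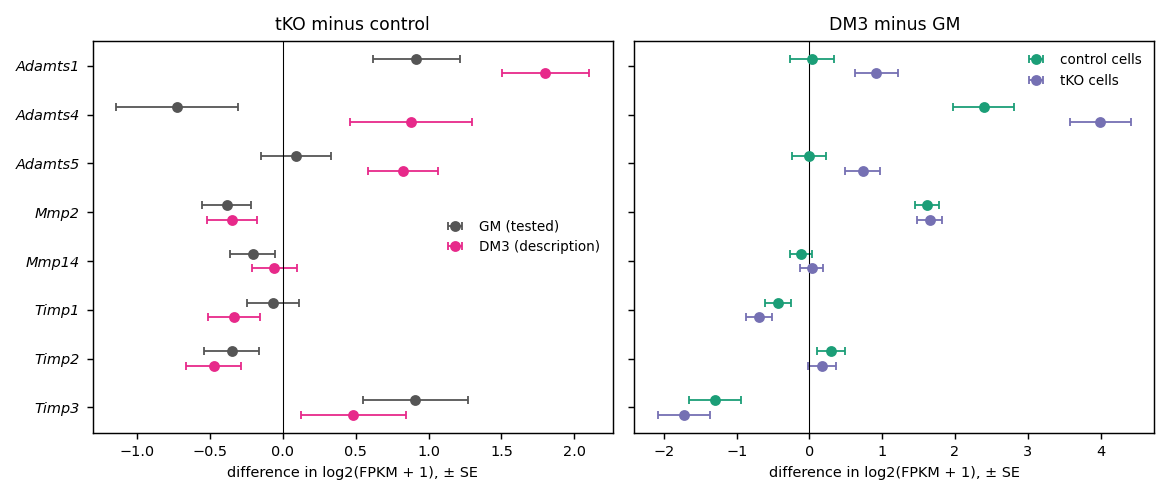
Differences in log2(FPKM + 1) ± SE of the 8 detected members, for tKO minus control (left, in GM and DM3) and DM3 minus GM (right, in control and tKO cells). Adamts4 and Mmp2 lie right of 0 and Timp3 left of 0 in both genotypes on the right, and Adamts1 has the largest tKO minus control difference of the members in DM3, the contrast that chose it.

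Between the 2 knockout clones, 3 of the 7 members other than Adamts1 were called, all higher in clone 2, against 5.41% of all genes. Besides Adamts4 these were Mmp14 (0.50, SE 0.10, limma adjusted p = 0.0159) and Timp2 (0.57, SE 0.14, limma adjusted p = 0.0373). Timp1 was higher in clone 2 by 0.49 (SE 0.14) without a call (limma adjusted p = 0.0683), and with TPM it was called (0.57, limma adjusted p = 0.0289). Adamts1 was lower in clone 2 by a difference of -0.66 (SE 0.25), given without a test because its tKO DM3 values chose it. The Timp2 call ended under 13 of 23 alternatives and the Mmp14 call under 4, among them median-of-ratios scaling for both (limma adjusted p = 0.0619 and 0.0556). The call of Adamts4 held under all 23. Without culture 1 of clone 1 in GM, or without culture 2 of clone 2 in DM3, Adamts4 was the 1 member called. Between the 2 control lines limma called 0 of the 8 members and 0% of all genes, with 0 members and 42 genes at an unadjusted p under 0.05, and voom called 0 genes.

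The balance of inhibitor to protease mRNA was lower after differentiation, and it was lowest in tKO DM3. The summed FPKM of the 3 Timps divided by that of the 7 proteases was 2.36 to 3.02 for control GM and 2.36 to 3.39 for tKO GM. After differentiation it was 1.83 to 2.01 in control cells and 1.14 to 1.53 in tKO cells. The DM3 groups did not overlap. Without Adamts1 in the sum the ranges were 1.91 to 2.09 and 1.24 to 1.67, still apart. That sum still holds Adamts4, which in tKO DM3 was at 28.6 and 20.4 FPKM in clone 1 and 133 and 83.9 in clone 2. The part of Adamts4 in this gap was not tested, so the gap is not shown to be common to both clones. In tKO DM3 the summed ADAMTS level was 136 FPKM ± 35 (SD, n = 4) against 48.2 ± 3.5 in control DM3, and the summed Timp level was 501 ± 130 against 640 ± 54. These ratios hold the values that chose Adamts1 and were not tested, and mRNA sums do not measure enzyme activity. Timp3 made up 3.64 to 6.53% of the Timp sum in control GM and 4.77 to 16.4% in tKO GM.

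Other genes of the pathway were read from 6 lists chosen with earlier results of these data known. Of 20 other Adamts proteases and Adamts-like genes, 8 passed the filter. In GM, limma called Adamts6 higher in tKO cells (0.80, SE 0.18, adjusted p = 0.0292), and it called Adamts2, the procollagen N-proteinase (-1.33, SE 0.28, adjusted p = 0.0208), and Adamts7 (-0.92, SE 0.19, adjusted p = 0.0169) lower. Of all genes, 2.06% were called in that comparison, 65 higher and 179 lower in tKO cells. The same share stands beside the GM calls of the other lists. With differentiation limma called 5 of the 8 higher and 2 lower in both genotypes. Of all genes, 61.5% were called in control cells and 60.9% in tKO cells. The leading changes were those of Adamtsl4 (1.47), Adamts14 (0.97) and Adamts12 (0.84) in control cells, and of Adamts7 (1.84), Adamts6 (-1.29) and Adamts14 (1.18) in tKO cells. In DM3 the widest tKO minus control differences, as a description, were Adamts2 (-1.08), Adamts12 (-0.89) and Adamtsl4 (-0.65).

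Of 21 other matrix metalloproteases 5 were tested, and limma called only Mmp19 lower in tKO GM (-1.56, SE 0.27, adjusted p = 0.00502). With differentiation limma called 4 of the 5 higher in control cells and all 5 in tKO cells, against 61.5% and 60.9% of all genes called. Mmp11 rose by 1.64 and 1.83 and the membrane-type Mmp15 by 1.42 and 1.34. Mmp28 rose by 0.65 in control cells and Mmp19 by 2.12 in tKO cells. In DM3 Mmp28 (-0.67), Mmp15 (-0.61) and Mmp11 (0.11) had the widest tKO minus control differences. Of 10 ADAM proteases 7 were tested and limma called 0 between genotypes in GM, as did voom, with 1 at an unadjusted p under 0.05. Adam12, known for its role in myoblast fusion, fell with differentiation by -1.27 in control and -1.78 in tKO cells, while Adam15 (1.07 and 1.17) and Adam19 (0.74 and 1.66) rose. The tKO minus control differences in DM3 were 0.53 for Adam19, 0.51 for Adam8 and -0.34 for Adam12.

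Of 9 other inhibitors and clearance receptors 5 were tested, with 0 called between genotypes in GM by limma or by voom and 3 at an unadjusted p under 0.05. Sdc4, a heparan sulphate proteoglycan of the cell surface, fell with differentiation by -1.32 in control and -0.83 in tKO cells. Lrp1, the endocytic receptor that clears ADAMTS and TIMP proteins, rose by 0.41 in tKO cells (SE 0.17, limma adjusted p = 0.0478). In DM3 Reck, a membrane-anchored inhibitor of matrix metalloproteases, differed by 0.62 between genotypes, Sdc4 by 0.61 and Sdc1 by -0.47. Among 11 genes of the activators and the plasminogen system, 8 were tested. Serpine2 (protease nexin 1) was called lower in tKO GM by limma (-1.05, SE 0.11, adjusted p = 2.66e-05) and was lower in tKO DM3 by a similar amount (-1.31, a description). With differentiation Plat rose by 1.55 and 1.94 in control and tKO cells, and the urokinase receptor Plaur fell by -1.10 and -2.33. Bsg rose by 0.88 in control cells. In DM3 Plau (0.49) and Pcsk7 (0.21) followed Serpine2 in the size of the tKO minus control difference.

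Of 20 proteoglycan and hyaluronan genes, the substrates and their partners, 11 were tested. Thbs2 was the 1 gene of the list called between genotypes in GM (-1.27, SE 0.30, limma adjusted p = 0.0383). With differentiation limma called 5 of the 11 higher and 1 lower in control cells, against 61.5% of all genes called. They were led by decorin (Dcn, 3.33), Prelp (2.17) and fibronectin (Fn1, 1.78). In tKO cells limma called 3 higher and 1 lower, against 60.9% of all genes called. Among these, Dcn was at 2.04, the hyaluronan synthase Has2 at -1.68 and Fn1 at 1.55. The widest tKO minus control differences in DM3 were Dcn (-1.65), Prelp (-1.07) and Has2 (-0.45). Versican (Vcan), the substrate shared by these ADAMTS proteases, was looked up outside the naming rule. Proliferating control cells held 38.2 FPKM ± 7.8 (SD, n = 4) of it and proliferating tKO cells 17.1 ± 7.8. After differentiation it was at 27.2 ± 4.06 in control DM3 and 21.8 ± 9.96 in tKO DM3.

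**Figure D4:**
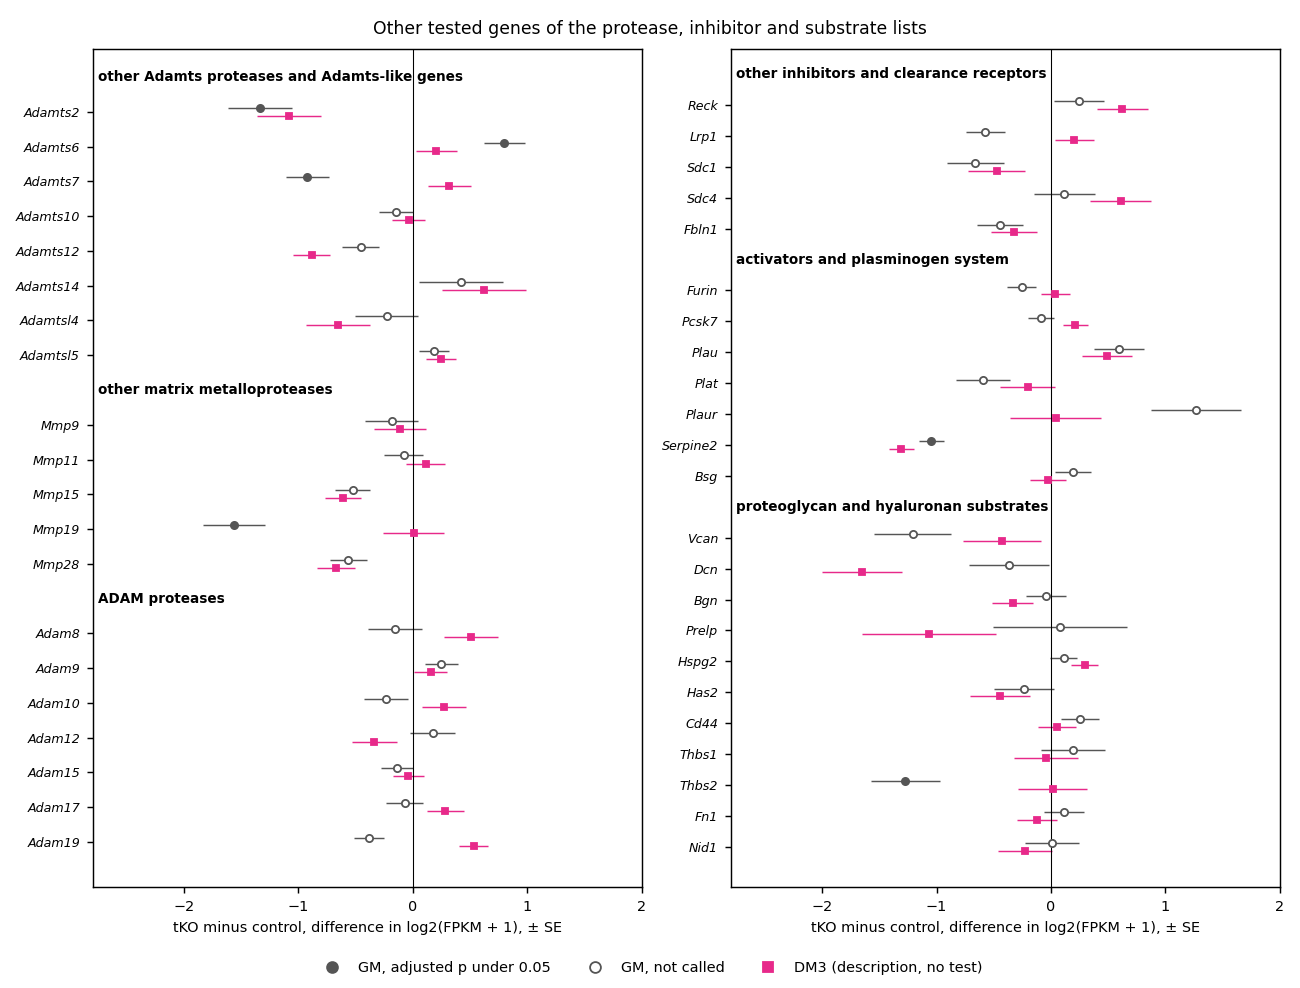
Genes of the 6 other lists, as tKO minus control differences in log2(FPKM + 1) ± SE, in GM (circles, filled where the limma adjusted p is under 0.05) and in DM3 (squares, no test). The 6 filled circles are Adamts2, Adamts6, Adamts7, Mmp19, Serpine2 and Thbs2, and 5 of them lie left of 0. Of all tested genes, 244 were called in GM, 65 higher and 179 lower in tKO cells.

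The genes most like Adamts1 over the 16 libraries, by Pearson r of log2(FPKM + 1) among tested protein-coding genes, were Cnr1 (0.96), Cspg4 (0.91), Macc1 (0.89), E2f5 (0.89) and Zfp608 (0.88). With the 4 group means removed they were Cnr1 (0.90), Cited2 (0.89), Ifi204 (0.89), Afap1l2 (0.89) and Nrap (0.88). Among those most like Timp3 were Frmd6 (0.97), Ankrd1 (0.97), Lrrfip1 (0.95) and Csrp1 (0.95), and with group means removed Tpm4 (0.91), 1100001G20Rik (0.88), Ncam1 (0.88), Capn2 (0.88) and Frmd6 (0.88). Cnr1 and Frmd6 stayed in the leading 5 of their gene both ways. These values describe 16 libraries that share stage, line and culture, and carry no test.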

How the data were processed

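Poly(A) mRNA of 16 C2C12 libraries was analysed. The authors deposited 1 table of FPKM with gene names, positions and lengths, per the file headers. STAR, DESeq and mm10 are named in the submitters' processing notes, without roles or versions. FPKM times length gave whole fragments (100% of values up to 10000 fragments, within 0.05), which supplied depth, a floor of 3 fragments that covers counting error only, and input for voom.

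log2(FPKM + 1) was fitted with limma 3.58.1 (R 4.3.3, trend and robust) as a group-means model over 16 libraries and 11832 genes (mean FPKM at least 0.5), with Benjamini-Hochberg adjustment. Clone and line comparisons used a model of 8 line-by-stage groups. Clone differences within stages were added after values had been seen. Such fold changes understate low genes. The procedure was tested on simulated data. Figures and sums used Python 3.11.15.

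Members and lists were chosen with earlier results of these data known. Named genes were all members, listed genes called in GM, and up to 3 per list for the other contrasts by size of difference (called ones between stages). The 5 genes most like Adamts1 and Timp3 were ranked by r. Versican was named outside this rule, and 2 genes that the rule names are not reported here. The labels say nothing of how separate the cultures were.

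Alternatives were pseudocount 0.1, no filter, TPM, median-of-ratios scaling, voom, only the compared libraries, line averages, replicate blocks, and leaving out each library or line.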

Additional observations from a re-analysis of the deposited data

Results flagged for a closer look

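In 32 sets of 4 libraries (8 members in 4 groups), 3 had a library far from the other 3 by Dixon's test, where chance flags about 1 in 20. Adamts5 in control DM3 was at 4.71 FPKM in culture 2 of line 1, below the other libraries. In tKO DM3 Adamts5 was at 23.9 FPKM in culture 2 of clone 1, above the other libraries. Mmp14 in control GM was at 172 FPKM in culture 1 of line 2, below the other libraries.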

How the results depend on the processing

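Each comparison was recomputed under 23 to 29 alternatives. The number of members called in tKO cells between stages stayed at 4 or 5 of 7 under all 28, and that between control lines at 0 under all 23 (limma and voom, with 0 at an unadjusted p under 0.05). In GM between genotypes the count was 0, with 1 without tKO clone 1, 5 without tKO clone 2, and 0 to 1 when each library was left out. A replicate block for culture gave a GM count of 1 (Timp3, limma adjusted p = 0.0235), as did a separate replicate block for culture at each stage, with a count of 1, an alternative chosen after seeing the data (Timp3, limma adjusted p = 0.0174). In control cells between stages the count of 4 became 2 without control line 1 and 2 without control line 2, was 3 to 4 when a library was left out, and rose to 5 with Timp2 when a tKO clone was left out, with only the libraries compared, or with line and culture number as a replicate block. For clones the count of 3 became 1 with median-of-ratios scaling, was 1 to 3 when a library was left out, and became 4 with TPM and with either replicate block, where Timp1 was also called (limma adjusted p = 0.0289 with TPM, 0.0298 and 0.0166 with the blocks). The described DM3 genotype difference reversed for Mmp14 without clone 1 (0.19, from -0.058) and for Adamts4 without clone 2 (-0.16, from 0.88), and the members' median became -0.23 without clone 2. The cause of these changes was not tested, and fits without a line also hold fewer libraries. Over all genes, the 244 calls in GM became 33 and 38 without control line 1 or 2, 1315 without clone 2, 97 with line averages, 635 with the block within stages, and 80 to 749 without a library. The 7272 calls between control stages became 4440 and 4693 without a control line. The 640 clone calls became 1671 with the block within stages and 283 to 1649 without a library, and the 0 calls between control lines became 1 with no filter. Deviations of same-numbered cultures from their group means correlated positively across genotypes in all 8 pairs of GM (r from 0.0955 to 0.452, 7 above 0.1). In DM3 the signs were mixed (r from -0.224 to 0.558 over 8 pairs, 5 above 0.1). The labels state no pairing, and the main fits therefore have no block. Whether the cultures with 1 number share a day or batch is not given in the sources used here. Line averages and fits without a line were not run for the clone and line comparisons. Adamts9 and Adamts15 had at most 2 fragments in any library, under the floor of 3 fragments, and no difference is given for them.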
